A study of Rattus norvegicus with 6 samples.

Results

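The genes described here encode the subunits of the voltage-gated sodium channels, the voltage-gated calcium channels and the hyperpolarization-activated HCN channels. They were chosen by name: every Scn alpha and beta subunit gene, every Cacna1, Cacna2d, Cacnb and Cacng gene and every HCN gene in the deposited count table. This gave 44 of 22396 genes, of which 14 encode sodium channel subunits, 26 calcium channel subunits and 4 HCN channels. RNA was sequenced from the basal temporal lobe of adult male Sprague-Dawley rats 24 h after subarachnoid hemorrhage (SAH), produced by injecting the animal's own femoral artery blood into the cisterna magna. All 6 rats had SAH: 3 received 6-gingerol (10 mg/kg, intraperitoneal) 1 h later (SAH + 6-gingerol) and 3 received the vehicle PBS (SAH + PBS). Each rat gave 1 library, so the tests measure the spread between rats. The RNA sequencing of the study had no sham group, so the levels cannot be set against an uninjured brain.

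Voltage-gated sodium channels open on depolarization and carry the upstroke of the action potential, and voltage-gated calcium channels turn that depolarization into calcium entry for transmitter release, dendritic signalling and gene regulation. Both are built around 1 large pore-forming subunit, alpha in sodium channels and alpha1 in calcium channels, joined by smaller subunits that set trafficking and gating. HCN channels open on hyperpolarization, are modulated by cyclic AMP, and carry the depolarizing current that sets resting potential and dendritic integration in neurons. Most gamma subunits of brain are better known as transmembrane AMPA receptor regulatory proteins (TARPs), which escort AMPA receptors to synapses, than as parts of calcium channels.

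The promoters of 3 members on which the comparisons below turn are shown, 1 TARP gene (Cacng3), 1 calcium channel beta subunit gene (Cacnb3) and 1 HCN gene (Hcn2). Each runs from 250 bases before to 50 bases after the annotated start in RefSeq (GRCr8), 5′ to 3′ on the strand of the gene, at chr1:186632312-186632611 (+) for Cacng3, chr7:131666301-131666600 (+) for Cacnb3 and chr7:10639408-10639707 (-) for Hcn2. Capitals mark matches on either strand to the left arm (TTCAGCACC) or the right arm (GGACAGC) of RE1, the element bound by the repressor REST, or to the GC box (GGGCGG), the element bound by the activator Sp1. The gene name stands before each window.
Cacng3: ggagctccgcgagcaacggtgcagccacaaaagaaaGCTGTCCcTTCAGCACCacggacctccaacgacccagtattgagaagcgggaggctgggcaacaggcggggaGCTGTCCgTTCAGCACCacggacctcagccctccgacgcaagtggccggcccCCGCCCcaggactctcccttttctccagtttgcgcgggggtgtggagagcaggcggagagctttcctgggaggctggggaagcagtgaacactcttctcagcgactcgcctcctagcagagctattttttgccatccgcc
Cacnb3: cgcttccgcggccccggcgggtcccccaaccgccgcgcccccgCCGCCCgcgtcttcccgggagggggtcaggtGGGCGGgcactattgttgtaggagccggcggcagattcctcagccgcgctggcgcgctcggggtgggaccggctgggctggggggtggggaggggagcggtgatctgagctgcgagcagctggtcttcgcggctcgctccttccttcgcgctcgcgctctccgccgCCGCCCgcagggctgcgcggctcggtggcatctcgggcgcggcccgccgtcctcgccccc
Hcn2: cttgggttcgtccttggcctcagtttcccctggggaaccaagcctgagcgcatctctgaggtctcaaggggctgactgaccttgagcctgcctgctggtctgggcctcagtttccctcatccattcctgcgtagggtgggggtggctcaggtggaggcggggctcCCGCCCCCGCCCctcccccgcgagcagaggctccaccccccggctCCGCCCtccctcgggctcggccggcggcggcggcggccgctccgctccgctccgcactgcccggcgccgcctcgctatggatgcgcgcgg

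In RefSeq, 31 promoters were found, for 28 of the 44 members. The left arm of RE1 was present in 119 of 33469 rat promoters of the same length (0.356%) and, among the members, only in Cacng3, which held 2 copies, beginning at bases 45 and 117 of the window. In both places the reverse complement of the right arm, at bases 37 and 109, came 1 base before the left arm, so the arms lay on opposite strands. The right arm alone occurred in 6.59% of promoters, and besides Cacng3 in Scn4a and Scn11a. The GC box occurred in 33.1% of all promoters and in 17 of the 31 promoters of the members. These 17 belonged to 15 of the 28 members, among them Cacnb3 and Hcn2 with 3 copies each. A TATA box (TATAAA) was held by 14.2% of promoters and, of the members, by Cacng2 and Cacna1s. The motifs overlapped none of each other in the printed windows, except that 2 GC boxes of Hcn2 lay side by side. The motifs were chosen after the promoters had been read, so these shares do not measure how unusual the matches are. These are letter matches and no binding was measured.

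Levels are given as normalized FPKM: fragments per kilobase of gene, scaled to library size with the TMM factors of edgeR, so that both rats and genes can be compared. Library totals ran from 62762808 to 66761380 counts. Of the 44 members, 34 had a mean of 1 normalized FPKM or more and 10 lay below it. Cacnb3, Cacng8, Scn3b and Scn2b were among the most abundant, in an order that differed between the groups and within spreads that overlapped. The 10 low members were the muscle channel genes Scn4a and Cacna1s, the peripheral sensory neuron genes Scn9a, Scn10a and Scn11a, the atypical sodium channel gene Scn7a, the retinal genes Cacna1f and Cacna2d4 and the muscle type gamma genes Cacng1 and Cacng6. None of these 10 went above 1.05 normalized FPKM in any rat. Cacna2d4 had 10 counts in 1 rat of each group and 0 in the other 4, and it alone did not pass the filter on low counts, which left 43 members of 17096 genes tested.

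**Figure D1:**
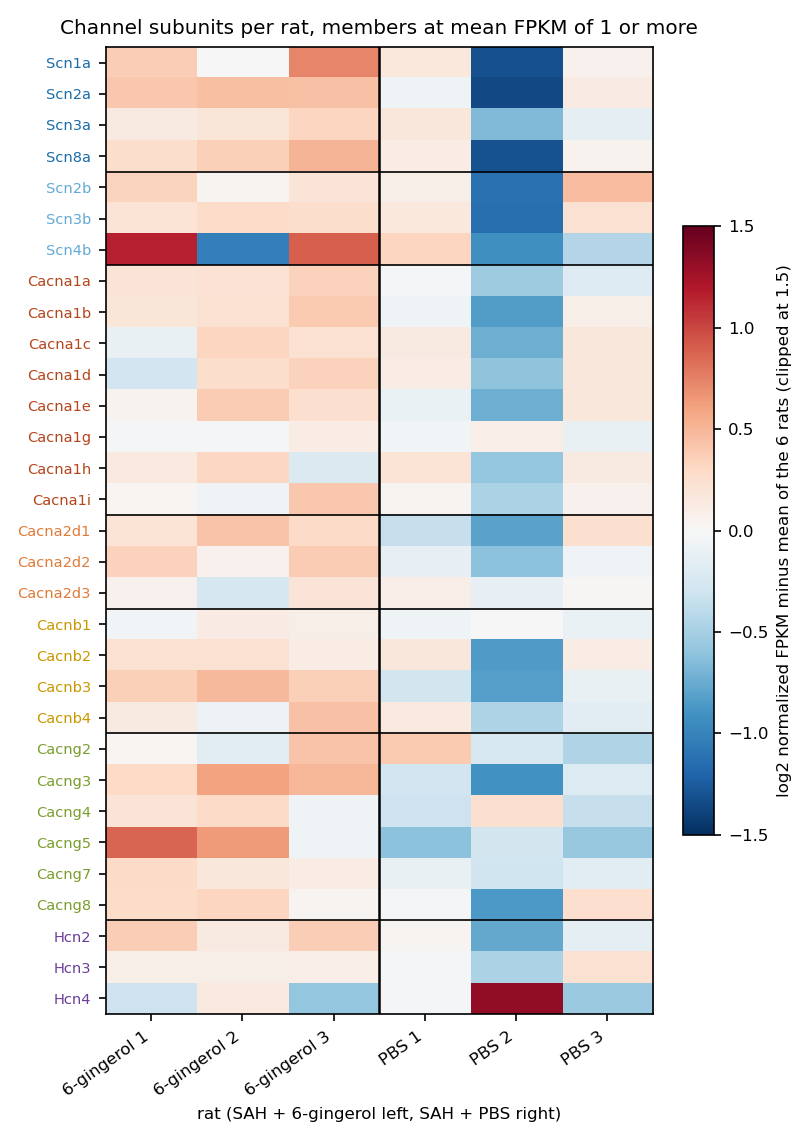
Level of 31 members with a mean of 1 normalized FPKM or more in each of the 6 rats, as log2 of the level minus its mean over the 6 rats (colour scale), with members in rows ordered by class (sodium alpha, sodium beta, calcium alpha1, alpha2delta, beta and gamma, HCN) and rats in columns. The column of SAH + PBS replicate 2 is the lowest of all 6 rats in 23 of the 31 rows, and Hcn4 is an exception with its highest level in that rat.

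One library stood apart. SAH + PBS replicate 2 was the lowest of the 3 PBS rats in 28 of the 34 members with a mean of at least 1 and the highest in 5. Its level was 62.8% of the mean of the other PBS rats at the median member, from 37.0% in Scn1a to 304% in Hcn4. Over all genes, 15.1% differed from the rest of their group by more than 2-fold in this library, against 5.12% and 7.18% in the other PBS rats and 1.29% to 1.69% in the 6-gingerol rats. For this reason the value without it is given where it moves a result by more than 1.5 times.

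Most channel subunit genes had somewhat higher transcript levels in SAH + 6-gingerol than in SAH + PBS, although scaling by neuron markers turned this around, and no member passed the adjusted threshold of edgeR. The log2 fold change (SAH + 6-gingerol over SAH + PBS) was positive in 37 of the 43 tested members and negative in 6, with a median of 0.32, while over all 17096 genes the median was -0.03, with 8011 positive and 9085 negative. At an unadjusted p under 0.05 in edgeR, 8 members (18.6%) were higher and 0 lower. The background over all genes was 5.22% higher and 8.71% lower. The members' count was 5 without 6-gingerol replicate 1 or without replicate 3 of that group. For these fits the share of all genes under that p was not computed. In 10 members (23.3%) every 6-gingerol rat lay above every PBS rat, against a background of 13.8%, and in 0 members below, against 13.4%. With the Benjamini-Hochberg adjustment over all genes the count was 0 in edgeR, where the background was 0.0175%, and the adjusted p of the members ran from 0.33 to 0.99. The count was 0 in limma-voom as well, where 4 of 17096 genes passed. DESeq2 gave 4 members with an adjusted p under 0.05, Cacng3, Cacnb3, Cacng5 and Cacng7, all higher with 6-gingerol, against a background of 1.28%.

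Without SAH + PBS replicate 2 the median member log2 fold change was 0.19, with 32 positive and 11 negative. The fold change came out smaller in 34 of the 43 members. The unadjusted p was then under 0.05 in 12 members (27.9%), all higher with 6-gingerol, where the background was 8.02%. Of the 8 members below this p with all rats, 7 were below it here too. No member passed the adjusted threshold of edgeR in that fit, where 91 of 17362 genes did, against 3 of 17096 genes with all rats.

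**Figure D2:**
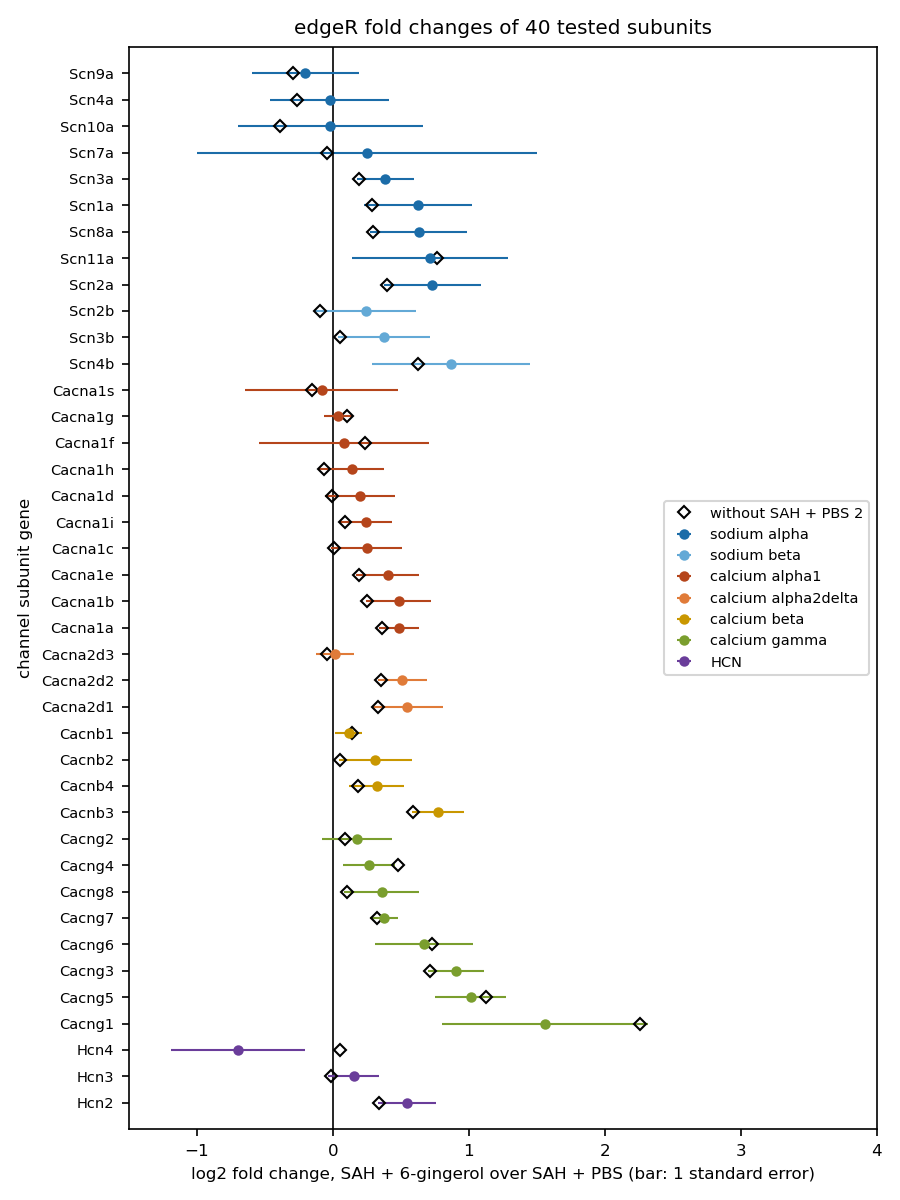
The edgeR log2 fold change of 40 tested members (points, bars of 1 standard error, colours by class) and the same without SAH + PBS replicate 2 (open diamonds). Points to the right of 0 are higher with 6-gingerol, which holds for 35 of them (9 with neuron marker scaling), and 31 of the 40 diamonds lie to the left of their points.

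Levels of neuron markers were also higher with 6-gingerol. The summed level of 16 neuron markers (none at 0) was between 5330 and 5509 normalized FPKM with 6-gingerol and 4109, 2614 and 4607 in the PBS rats, with 15 of 16 log2 fold changes positive and a median of 0.52 (0.30 without SAH + PBS replicate 2). For 10 excitatory neuron markers the sums were 1714 to 2080 with 6-gingerol and 667 to 1399 with PBS, while for 10 inhibitory neuron markers they overlapped (623 to 695 and 534 to 663). The 12 markers of striatal medium spiny neurons summed to 289 to 451 with 6-gingerol and to 178 to 221 with PBS. A positive log2 fold change was not limited to neuron markers. All 8 oligodendrocyte markers had one, with a median of 0.54 (0.31 without SAH + PBS replicate 2). Their sums overlapped, at 1240 to 2329 with 6-gingerol and 912 to 1760 with PBS. For 10 astrocyte markers the sums were 1549 to 1730 against 1932 to 2424, although 7 of the 10 had a positive log2 fold change. Their median was 0.16, and 0.014 without SAH + PBS replicate 2. Neutrophil markers were at 2.23 to 2.69 against 19.5 to 152, highest in SAH + PBS replicate 2. Choroid plexus and ependyma markers summed to 24.3 to 34.6 with 6-gingerol and to 1552, 45.4 and 472 in the PBS rats. The part of these cell type differences in the members' values was not tested beyond the scaling given next, and in bulk tissue fewer cells of a type and less RNA per cell cannot be told apart. When libraries were scaled by the neuron markers, the median member log2 fold change was -0.26, with 10 positive and 33 negative, against a median of -0.70 over all genes, of which 1228 were positive and 15868 negative. Under that scaling 0 members were higher and 2, among them Cacna2d3, were lower at an unadjusted p under 0.05 in edgeR, where the background was 0.263% higher and 37% lower.

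Among the sodium channel alpha subunits, Scn2a and Scn8a were the most abundant, and both kept the groups apart. Scn2a (chr3:51687809-51822250 in Rnor_6.0) encodes the channel of the axon initial segment and unmyelinated axons of principal neurons. It measured 75.0, 77.1 and 76.6 normalized FPKM in the 6-gingerol rats and 54.1, 22.1 and 61.6 in the PBS rats. The 6-gingerol rats lay close together, whereas SAH + PBS replicate 2 was far below the rest. The log2 fold change was 0.73 ± 0.36 (SE) and the edgeR adjusted p was 0.388. Without that rat it was 0.40, with an edgeR adjusted p of 0.110. Scn8a, the main channel of mature initial segments and nodes of Ranvier, was at 48.3, 51.6 and 57.2 with 6-gingerol and 43.4, 16.2 and 41.8 with PBS. All 3 treated rats were above all PBS rats, and the log2 fold change of 0.63 ± 0.36 had an edgeR adjusted p of 0.420. Without SAH + PBS replicate 2 the value was 0.30.

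Scn1a, the alpha subunit on which fast-spiking interneurons depend, was lower in level and its groups overlapped, with 11.7, 8.99 and 15.05 normalized FPKM after 6-gingerol and 10.1, 3.61 and 9.41 after PBS (log2 fold change 0.63 ± 0.40, edgeR adjusted p = 0.452, and 0.29 without SAH + PBS replicate 2). Scn3a, the subunit of the developing brain, measured 12.4, 12.9 and 14.1 against 12.7, 7.18 and 10.2, again with overlap (0.39 ± 0.21, edgeR adjusted p = 0.407, and 0.19 without that rat). Another 5 alpha subunits were low: no rat was above 1.05 normalized FPKM, and their edgeR adjusted p ran from 0.531 to 0.990. Summed over the alpha subunits, the level was 152 to 165 with 6-gingerol and 122, 50.6 and 127 with PBS.

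The sodium channel beta subunits are single-pass membrane proteins that modulate gating and act in cell adhesion, and their groups overlapped throughout. Scn3b had 83.9, 88.6 and 87.5 normalized FPKM in the 6-gingerol rats against 81.2, 33.4 and 85.6 in the PBS rats, and Scn2b, joined to the alpha subunit by a disulfide bond, 90.4, 74.0 and 82.5 against 76.2, 33.1 and 99.3. In both, a single PBS rat was low and the others lay near or above the treated rats, and without it the log2 fold changes were 0.06 and -0.09 instead of 0.38 and 0.24. Scn4b, the beta subunit linked to resurgent current and abundant in striatal neurons, varied between rats of 1 group more than the others, at 11.9, 2.59 and 9.84 with 6-gingerol and 6.62, 2.81 and 3.89 with PBS (0.87 ± 0.58, edgeR adjusted p = 0.464). The 14 tested sodium channel members had a median log2 fold change of 0.38, with 11 positive and 1 higher at an unadjusted p under 0.05 in edgeR (background 5.22%). Without SAH + PBS replicate 2 the median was 0.17 and 2 were higher at that p (background 8.02%). With neuron marker scaling the median was -0.18.

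Of the calcium channel alpha1 subunits, only the 2 main presynaptic ones, Cacna1a and Cacna1b, had no overlap between the groups. Cacna1a, the pore of the P/Q-type channel that triggers release at most central synapses, measured 26.5, 27.1 and 29.4 normalized FPKM with 6-gingerol and 22.7, 16.1 and 20.4 with PBS. The log2 fold change was 0.49 ± 0.15, at an edgeR adjusted p of 0.347, and 0.36 without SAH + PBS replicate 2. Cacna1b, the N-type pore, had 20.6, 21.4 and 23.9 in the treated rats and 17.4, 10.2 and 19.4 in the PBS rats (0.49 ± 0.24, edgeR adjusted p = 0.388, and 0.25 without that rat). Cacna1e, the R-type pore, was the most abundant of the class, at 31.3, 39.2 and 35.6 against 28.2, 18.2 and 33.9. Its groups overlapped by 1 rat of each, and the log2 fold change was 0.40 ± 0.23, with an edgeR adjusted p of 0.425, and 0.19 without SAH + PBS replicate 2.

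The L-type pores of neurons, Cacna1c and Cacna1d, were lower, with log2 fold changes of 0.25 and 0.20 and groups that overlapped, and without SAH + PBS replicate 2 these were 0.0095 and -0.0088. The T-type pores carry low-threshold current. Cacna1i had 19.6, 18.5 and 25.3 normalized FPKM with 6-gingerol and 19.7, 13.8 and 19.99 with PBS (0.25, edgeR adjusted p = 0.526, and 0.09 without SAH + PBS replicate 2). Cacna1g had a log2 fold change of 0.04 (0.10 without that rat) and was among the few members not low in SAH + PBS replicate 2, where it measured 16.8 against 15.3 and 14.5 in the other PBS rats. For Cacna1h the log2 fold change was 0.14, and -0.068 without SAH + PBS replicate 2. Cacna1f and Cacna1s stayed between 0.038 and 0.257 normalized FPKM in every rat.

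The alpha2delta subunits, which bring the pore to the membrane and in the case of Cacna2d1 and Cacna2d2 bind gabapentin, had unlike values. Cacna2d2 measured 12.5, 10.3 and 12.9 normalized FPKM with 6-gingerol and 9.05, 6.46 and 9.56 with PBS, with no overlap (log2 fold change 0.51 ± 0.18, edgeR adjusted p = 0.348). Cacna2d1 was more abundant, at 57.4, 67.4 and 60.8 against 39.3, 28.5 and 59.0, and overlapped in 1 rat (0.55 ± 0.26, edgeR adjusted p = 0.380, and 0.33 without SAH + PBS replicate 2). Cacna2d3 had 30.6, 24.6 and 33.3 in the treated rats and 31.3, 26.8 and 29.6 in the PBS rats, a log2 fold change of 0.01 ± 0.14, and -0.045 without SAH + PBS replicate 2. Its PBS rats were close together and SAH + PBS replicate 2 was little below them.

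The beta subunits are cytoplasmic and hold the alpha1 subunit at the membrane. Cacnb3 (chr7:140315368-140324902 in Rnor_6.0) had one of the smallest p-values among the members, at 96.3, 105 and 95.95 normalized FPKM in the 6-gingerol rats and 62.0, 42.3 and 69.5 in the PBS rats. The means were 99.0 ± 5.1 and 57.9 ± 14.0 (SD, n = 3). Every treated rat was well above the highest PBS rat. The log2 fold change was 0.77 ± 0.19, with an adjusted p of 0.338 in edgeR and 0.016 in DESeq2, and it was 0.59 without SAH + PBS replicate 2. Cacnb1, the muscle type beta subunit that brain also expresses, had 51.1, 57.4 and 55.7 against 50.2, 52.4 and 48.9 (0.12 ± 0.10, edgeR adjusted p = 0.544). Cacnb2 and Cacnb4 overlapped between the groups, Cacnb2 at 18.1, 18.0 and 16.6 against 17.3, 8.54 and 16.6, and Cacnb4 at 27.1, 23.2 and 33.3 against 27.2, 17.8 and 21.8. Their log2 fold changes of 0.31 and 0.32 were 0.05 and 0.19 without SAH + PBS replicate 2.

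**Figure D3:**
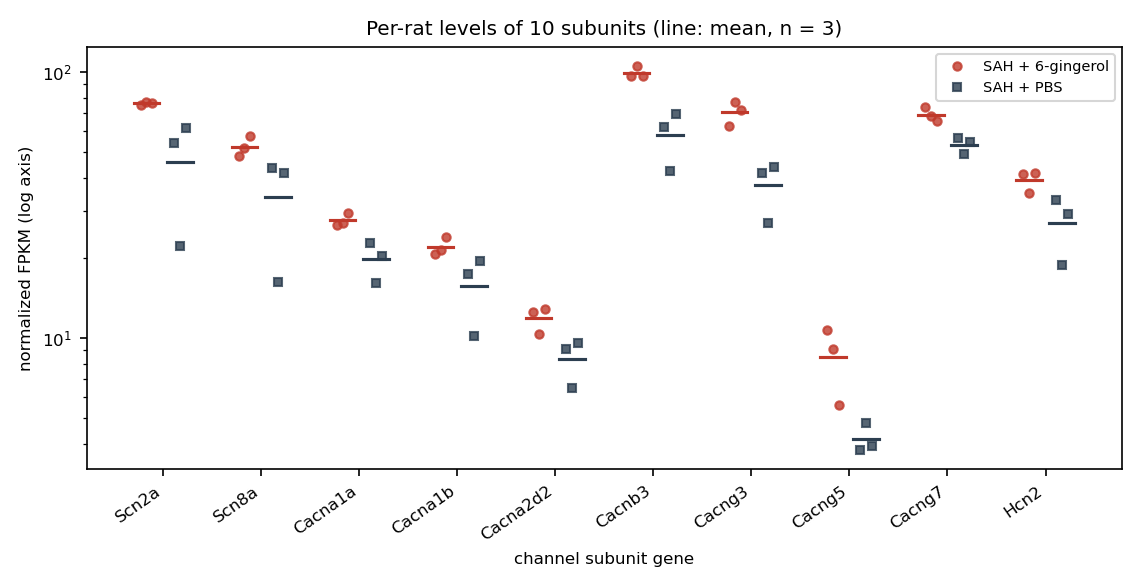
Normalized FPKM in each rat (points, log axis) with group means (lines) for the 10 members whose groups do not overlap, SAH + 6-gingerol beside SAH + PBS. In each of them every treated rat is above every PBS rat, and SAH + PBS replicate 2 is the lowest point except in Cacng5.

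Among the gamma subunits, Cacng3, Cacng5 and Cacng7 had no overlap between the groups. Cacng3 (chr1:192613372-192709078 in Rnor_6.0), a TARP of cortical and hippocampal excitatory neurons, measured 62.5, 77.2 and 71.9 normalized FPKM with 6-gingerol and 41.8, 27.1 and 44.0 with PBS, means of 70.5 ± 7.4 and 37.6 ± 9.2 (SD, n = 3). The lowest treated rat was above the highest PBS rat, and the log2 fold change was 0.91 ± 0.20, with an adjusted p of 0.334 in edgeR and 0.005 in DESeq2. Without SAH + PBS replicate 2 it was 0.72, with an edgeR adjusted p of 0.066. The Cacng3 promoter shown above holds 2 copies of the RE1 left arm. Its only matches to the right arm lay on the opposite strand, and binding of REST was not measured. The repressor gene Rest itself measured 1.53, 1.86 and 1.71 with 6-gingerol and 2.55, 5.43 and 2.03 with PBS. All treated rats were below all PBS rats, with a log2 fold change of -0.97 ± 0.38, an edgeR adjusted p of 0.354, and -0.43 without SAH + PBS replicate 2. Whether Rest plays a part in the Cacng3 level was not tested.

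Cacng5 and Cacng7 encode atypical TARPs. Cacng5 had 10.7, 9.07 and 5.58 normalized FPKM in the treated rats and 3.80, 4.80 and 3.94 in the PBS rats, with group means of 8.45 ± 2.61 and 4.18 ± 0.54 (SD, n = 3). The groups did not overlap, although the treated rats spread widely, and SAH + PBS replicate 2 was the highest of the PBS rats here. The log2 fold change was 1.01 ± 0.26, with an adjusted p of 0.340 in edgeR and 0.018 in DESeq2, and 1.13 without that rat. Cacng7 measured 73.9, 68.0 and 65.1 against 56.2, 49.1 and 54.2, with a log2 fold change of 0.38 ± 0.10 and an adjusted p of 0.343 in edgeR and 0.039 in DESeq2. Cacng8, a TARP strong in hippocampus, had 94.6, 98.1 and 80.7 against 76.7, 43.2 and 93.3 (0.36 ± 0.28, edgeR adjusted p = 0.514, and 0.10 without SAH + PBS replicate 2). Cacng4 had 25.0, 26.9 and 21.1 against 17.6, 25.9 and 17.2. In that gene the highest PBS level was in replicate 2, and without it the log2 fold change was 0.48 instead of 0.26. Cacng2, stargazin, had a log2 fold change of 0.18 with an edgeR adjusted p of 0.733, and 0.09 without that rat. Cacng1 and Cacng6 were at most at 0.645 normalized FPKM in every rat.

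Of the 25 tested calcium channel members, 24 had values above 0 on the log2 scale and the class median was 0.32 (0.19 without SAH + PBS replicate 2 and -0.28 with neuron marker scaling), and 6 were higher at an unadjusted p under 0.05 in edgeR, against a background of 5.22%. Those 6 were Cacna1a, Cacna2d2, Cacnb3, Cacng3, Cacng5 and Cacng7.

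The HCN genes did not share 1 direction. Hcn2, the widely expressed cyclic AMP-sensitive subunit, measured 41.4, 35.1 and 41.5 normalized FPKM in the 6-gingerol rats and 32.9, 18.8 and 29.2 in the PBS rats, without overlap (log2 fold change 0.54 ± 0.21, edgeR adjusted p = 0.355). It was 0.34 without SAH + PBS replicate 2. Hcn3 was at 5.19, 5.19 and 5.23 with 6-gingerol and 4.81, 3.51 and 5.71 with PBS, the treated rats being nearly equal. Its log2 fold change was 0.15, and -0.016 without SAH + PBS replicate 2. Hcn4, the slow subunit of thalamus and sinoatrial node, had 3.69, 5.08 and 3.08 against 4.49, 11.6 and 3.13. Its high value in SAH + PBS replicate 2 made the log2 fold change -0.70 ± 0.50, and without that rat it was 0.05.

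Ratios of related subunits within each library do not depend on library scaling. Of 11 ratios of deposited FPKM computed, 9 are reported, and all 9 overlapped between the groups. Tests were 2-sided, and the smallest exact permutation p that 3 against 3 rats allow is 0.1. Cacng3 over Cacng2 was 3.37, 4.74 and 2.95 against 1.76, 1.77 and 3.33 (exact permutation p = 0.2). Cacnb4 over Cacnb3 was 0.281, 0.221 and 0.347 against 0.438, 0.420 and 0.314 (exact permutation p = 0.2), and Cacna2d3 over Cacna2d1 0.533, 0.365 and 0.548 against 0.796, 0.938 and 0.501 (exact permutation p = 0.3). Scn8a over Scn2a, at 0.644, 0.669 and 0.747 against 0.803, 0.734 and 0.678, had an exact permutation p of 0.4. After adjustment over the 11 ratios the exact permutation p of these 9 ran from 0.629 to 0.700.

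**Figure D4:**
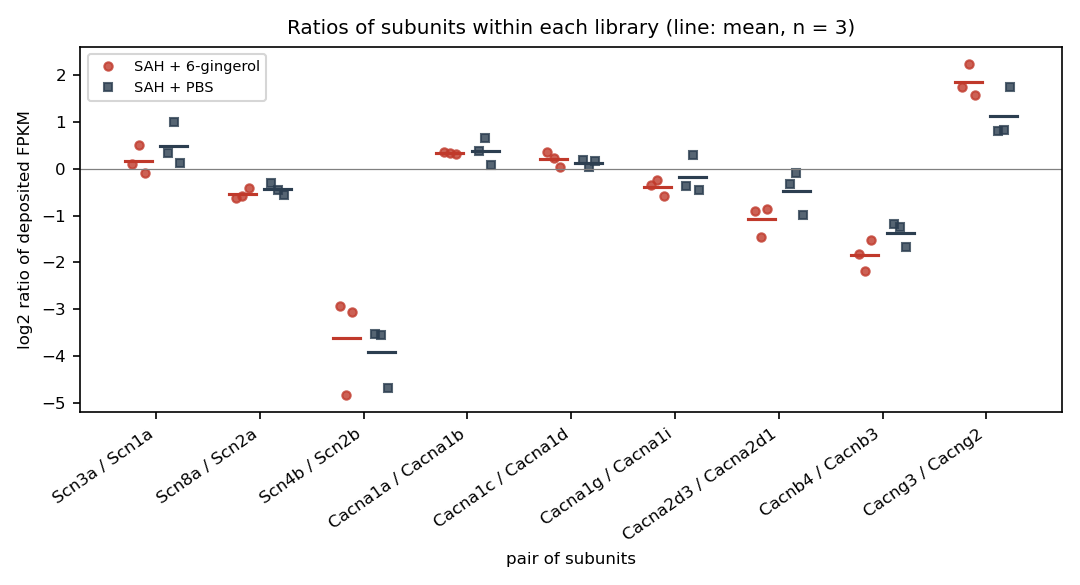
Ratios of FPKM between related subunits in each rat (points, log2 scale, lines for group means), SAH + 6-gingerol beside SAH + PBS. All 9 ratios overlap between the groups, and Cacng3 over Cacng2 runs from 2.95 to 4.74 with 6-gingerol and from 1.76 to 3.33 with PBS before taking logs.

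Genes whose products bind or regulate these channels were taken from lists by function, of which 48 gene models were tested. Their median log2 fold change was 0.32, with 35 positive and 13 negative, and it was 0.11 without SAH + PBS replicate 2 and -0.23 with neuron marker scaling. At an unadjusted p under 0.05 in edgeR, 9 were higher and 4 lower, against backgrounds of 5.22% and 8.71%. Without SAH + PBS replicate 2, 15 were higher (background 8.02%) and 4 lower (1308 of 17362 genes). The adjusted threshold of edgeR was passed by 0 in both fits, against backgrounds of 0.0175% and 91 of 17362 genes. DESeq2 gave 5 an adjusted p under 0.05, Kcnq3 and Cabp1 higher and Rrad, Gem and Kcne2 lower, against backgrounds of 1.28% higher and 3% lower. Among the sodium channel partners, Kcnq3, a subunit of the M-current channel of initial segments, had a log2 fold change of 0.81 with values of 24.02, 24.6 and 27.3 against 17.8, 9.49 and 16.05 normalized FPKM. Fgf12, which binds the alpha subunit tail, had 0.55, and Nrcam, an adhesion molecule of nodes and initial segments, 0.56 (0.35 without SAH + PBS replicate 2). The release-site genes Rims1, Erc2 and Unc13a had log2 fold changes of 0.53, 0.58 and 0.56, and Cabp1, a calcium sensor on calcium channels, 0.98. Cbarp, which binds calcium channel beta subunits, had 0.65. Of the RGK genes, whose proteins bind calcium channel beta subunits and restrain the channel, Rrad was at 3.28, 2.99 and 2.80 against 17.9, 26.5 and 4.05 (log2 fold change -2.42, edgeR adjusted p = 0.343). All treated rats lay below all PBS rats, and PBS replicate 3 was the nearest to them. Without PBS replicate 2 the log2 fold change was -1.86 with an edgeR adjusted p of 0.200, and without PBS replicate 3 the adjusted p of edgeR was 0.037. Gem overlapped, at 1.09, 1.82 and 1.88 against 7.49, 22.1 and 1.22 (-2.68, and -1.44 without SAH + PBS replicate 2). The other RGK genes listed, Rem1 and Rem2, also overlapped, with log2 fold changes of -0.08 and -0.78 that were 0.65 and -0.21 without that rat. Kcne2, an HCN accessory subunit that choroid plexus expresses strongly, was at 1.47, 1.3 and 1.64 against 8.07, 3.83 and 2.71. The choroid plexus and ependyma markers given above were also higher in PBS rats. Among the PBS rats these markers were lowest in replicate 2 and Kcne2 was lowest in replicate 3. Whether the markers bear on the Kcne2 level was not tested. Nalcn, the sodium leak channel, had 29.3, 31.1 and 28.0 against 20.4, 9.47 and 26.7 with a log2 fold change of 0.64 and an edgeR adjusted p of 0.407. Its complex members Unc80 and Unc79 had log2 fold changes of 0.37 and 0.20 with overlapping groups. Without SAH + PBS replicate 2 the values were 0.32 for Nalcn, 0.07 for Unc80 and 0.03 for Unc79.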

How the data were processed

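Basal temporal lobe RNA of 6 SAH rats, 3 given 6-gingerol and 3 given PBS, was analysed. The authors deposited read counts per gene and FPKM. The deposited columns call the 6-gingerol rats Control and the PBS rats SAH. The groups used here follow the sample titles, which give both names. Listed in the submitters' processing notes, without roles, are the build Rnor_6.0 and the tools limma 3.32.10, StringTie 1.3.3b and HISAT2 2.1.0. STAR and DESeq2 appear in the methods of the study. For the counter, the strandedness and the gene annotation version nothing was given in the sources used. The deposited FPKM equal counts over length and library total (deviation at most 0.0164% over 13995 genes with 50 counts or more in every library).

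Counts were tested with edgeR 4.0.16 (filterByExpr, minimum count 10 and minimum total 15, TMM, quasi-likelihood test, Benjamini-Hochberg over 17096 genes) in R 4.3.3. The standard error is the log2 fold change over the square root of F. Ratios used exact permutation tests. Alternatives were DESeq2 1.42, limma 3.58.1 on counts and on log2 FPKM plus 1 or 0.1, other scalings and filters, leaving out each rat, and a replicate block. Members and lists were chosen with earlier results of these data known, and the motifs after the promoters had been read. Values per rat are given, in each class, for members with an unadjusted p under 0.05, the 4 of highest mean FPKM and the 2 of smallest p, and for partner genes by p. Some genes and ratios that this rule names are not reported here, though counts and medians include them. Promoters are RefSeq's (GRCr8), and gene coordinates are Rnor_6.0.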

Additional observations from a re-analysis of the deposited data

How the results depend on the processing

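Which members moved and how far depended on the scaling and on SAH + PBS replicate 2. The median log2 fold change of all genes shifted to -0.15 with library totals, to -0.70 with neuron marker scaling, and to -0.10 and -0.12 with FPKM. With neuron marker scaling the median turned negative for the sodium (-0.18), calcium (-0.28) and HCN (-0.55) members and for the partners (-0.23). For the HCN members it was also negative with library totals (-0.060) and with limma on log2 FPKM plus 1 (-0.045) or plus 0.1 (-0.042). The members with an unadjusted p under 0.05 numbered 8 in edgeR, 5 with library totals, 2 with neuron marker scaling, and 5 to 12 when each rat was left out. For library totals, the replicate block and leaving out rats other than SAH + PBS replicate 2, the share of all genes under that p was not computed. DESeq2 gave 4 members an adjusted p under 0.05, edgeR 0.

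Of the genes chosen for values per rat, neuron marker scaling reversed Cacna1a (-0.14), Cacna1b (-0.082), Cacna1e (-0.17), Cacna1i (-0.36), Cacna2d1 (-0.017), Cacna2d2 (-0.10), Cacna2d3 (-0.64), Cacnb1 (-0.57), Cacnb2 (-0.25), Cacnb4 (-0.30), Cacng4 (-0.49), Cacng7 (-0.28), Cacng8 (-0.19), Hcn2 (-0.046), Hcn3 (-0.44), Scn2b (-0.26), Scn3a (-0.21), Scn3b (-0.15), Fgf12 (-0.056), Nrcam (-0.012), Unc13a (-0.054), Rims1 (-0.082), Erc2 (-0.026), Nedd4l (-0.40), Unc80 (-0.16), Unc79 (-0.39) and Rcor2 (-0.18). Of members given by their fold change alone it reversed Cacna1c (-0.32), Cacna1d (-0.38), Cacna1g (-0.66), Cacna1h (-0.45) and Cacng2 (-0.48). Cacna2d3 was also negative with library totals (-0.11), a filter of 1 CPM (-0.0061) and log2 FPKM plus 1 (-0.11) or 0.1 (-0.11), as was Cacnb1 with library totals (-0.0046) and log2 FPKM plus 1 (-0.0037) or 0.1 (-0.0038). Leaving out each rat, the log2 fold change crossed 0 for Cacna2d3 (-0.079 to 0.13), Hcn4 (-1.03 to 0.052), Hcn3 (-0.016 to 0.32) and Scn2b (-0.092 to 0.59), for Cacna1d (-0.0088) and Cacna1h (-0.068) without SAH + PBS replicate 2, and the log2 difference for the ratios Scn4b over Scn2b (-0.066 to 0.92), Cacna1a over Cacna1b (-0.18 to 0.11) and Cacna1g over Cacna1i (-0.35 to 0.025). The cause was not tested.

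The same-numbered rats did not deviate together (correlations -0.0457, -0.000378 and -0.0140). With the replicate block 8 members had an unadjusted p under 0.05, and 0 members and 0 of 17096 genes an adjusted one. Depth limits the 10 members under 1 normalized FPKM.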
